A study of Mus musculus with 30 samples.

Results

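Transcripts of 9 growth factor receptor tyrosine kinases were followed in C2C12 myotubes after serum was withdrawn and metformin, leucine or both were added. The receptors were Egfr, Erbb2, Erbb3, Pdgfra, Pdgfrb, Fgfr1, Fgfr4, Met and Axl. They were listed by name, with earlier results of these data known, and each had 1 row among the 55487 genes counted. All 9 were among the 15907 genes with enough reads to be tested. C2C12 is a mouse myoblast line, and every group held wild-type cells of this 1 line that had first been differentiated for 4 days and were then kept for 4 further days in their medium, 8 days in all. The 2% HS group stayed in low-glucose medium with 2% horse serum. The serum-deprived (SD) group had low-glucose medium without horse serum. The MET group had the SD medium with 100 nM metformin, the LEU group had it with 500 nM leucine, and the MET+LEU group had it with both. Each group had 6 replicates, and 1 ribosomal RNA-depleted total RNA library was sequenced from each. Nothing in the labels says that the replicates were separate cultures, so the p-values measure the spread between these libraries, which may be technical. Here Met in lower case is always the receptor gene and MET is always the metformin group.

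Receptor tyrosine kinases are membrane proteins that bind a secreted ligand outside the cell, pair up, and phosphorylate themselves and docked adaptor proteins inside it, from which signals run through Ras and the MAP kinases and through phosphoinositide 3-kinase. In the muscle lineage, fibroblast and hepatocyte growth factors are known to hold myoblasts in a proliferating, undifferentiated state, while neuregulin signals through ErbB receptors at the neuromuscular junction. Pdgfra is a common marker of the fibro-adipogenic cells that lie between muscle fibres, and Pdgfrb of the mural cells of small vessels.

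Libraries held 12784960 to 19604103 counts, and the 9 receptors together took 0.0907% to 0.141% of them. MET+LEU replicate 6 stood apart. Ribosomal RNA genes took 5.85% of its counts and mitochondrial ribosomal RNA 7.64%, against at most 1.96% and 0.76% in any other library, and it had the lowest receptor share. The main results that use the MET+LEU group are therefore given with and without it. The cultures carried the markers of myotubes, with summed levels of 8 such genes (Ckm, Acta1, Tnnt3, Mylpf, Myog, Actn2, Ttn and Atp2a1) of 38040 to 40780 CPM (counts scaled to a common library size by TMM) in 2% HS and 30720 to 33110 in SD. Markers of endothelial cells were all under 10 counts in every library, with Emcn at 0. The macrophage marker Adgre1 and the mural cell marker Kcnj8 were also at 0, but other markers of these lists were present. In 2% HS the 4 macrophage genes summed to 2.86 to 4.35 CPM and the 4 mural cell genes to 83.0 to 94.8 CPM. The 7 fibroblast genes summed to 2985 to 3298 CPM.

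Per length of exon, the receptors ranged over more than an order of magnitude. Pdgfrb was highest, with a mean over the 30 libraries of 52.2 CPM per kb, which placed it at percentile 95.8 of the genes tested. Axl followed at 39.3, Fgfr4 at 27, Fgfr1 at 23.8, Erbb2 at 20.8, Erbb3 at 19 and Met at 18 CPM per kb. Egfr stood lower, at 9.81 CPM per kb, and Pdgfra was the lowest of the 9 at 1.55, percentile 27.6. Pdgfra accordingly rested on 107 to 322 counts per library, while the next lowest, Fgfr4, had 1037 to 2058. Within each of the 5 groups, the library ranges of Pdgfrb and Axl did not meet, and neither did those of Met and Egfr or of Egfr and Pdgfra. The middle of the order was closer. In 2% HS the ranges of Fgfr1 and Fgfr4 overlapped, at means of 29.4 and 28.4 CPM per kb, whereas in SD they did not, at 22.4 and 27.1. Erbb3 and Met overlapped in every group but 2% HS. Erbb4, the remaining ErbB receptor, had at most 2 counts in any library.

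**Figure D1:**
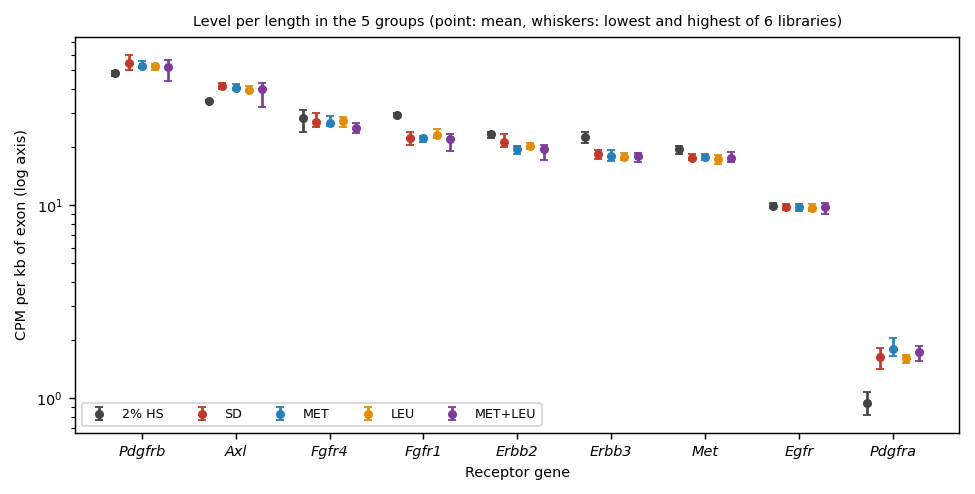
Level of each receptor per length in the 5 groups, in CPM per kb of exon on a log axis; points are means and whiskers the lowest and highest of 6 libraries. Pdgfrb and Axl lie at the top and Pdgfra at the bottom in every group, and the 2% HS point of Pdgfra, at 0.941 CPM per kb, lies below its other 4 points.

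The first comparison, SD vs. 2% HS, asked what 4 days without serum did to the receptor transcripts. 7 of the 9 receptors passed the threshold. Pdgfra, Axl and Pdgfrb were higher in SD, and Fgfr1, Erbb3, Met and Erbb2 were lower. Egfr and Fgfr4 did not pass. The 3 higher receptors compare with 13.9% of all tested genes that were called higher, and the 4 lower ones with 13.9% called lower. The test was edgeR's quasi-likelihood F test on all 30 libraries, with Benjamini-Hochberg adjustment over all 15907 genes and a threshold of 0.05, and it was used for every adjusted p below unless another test is named. In bulk cultures such as these, fewer cells of a type and less RNA per cell cannot be told apart. The 7 calls were made under all 9 other settings and with each library left out in turn.

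**Figure D2:**
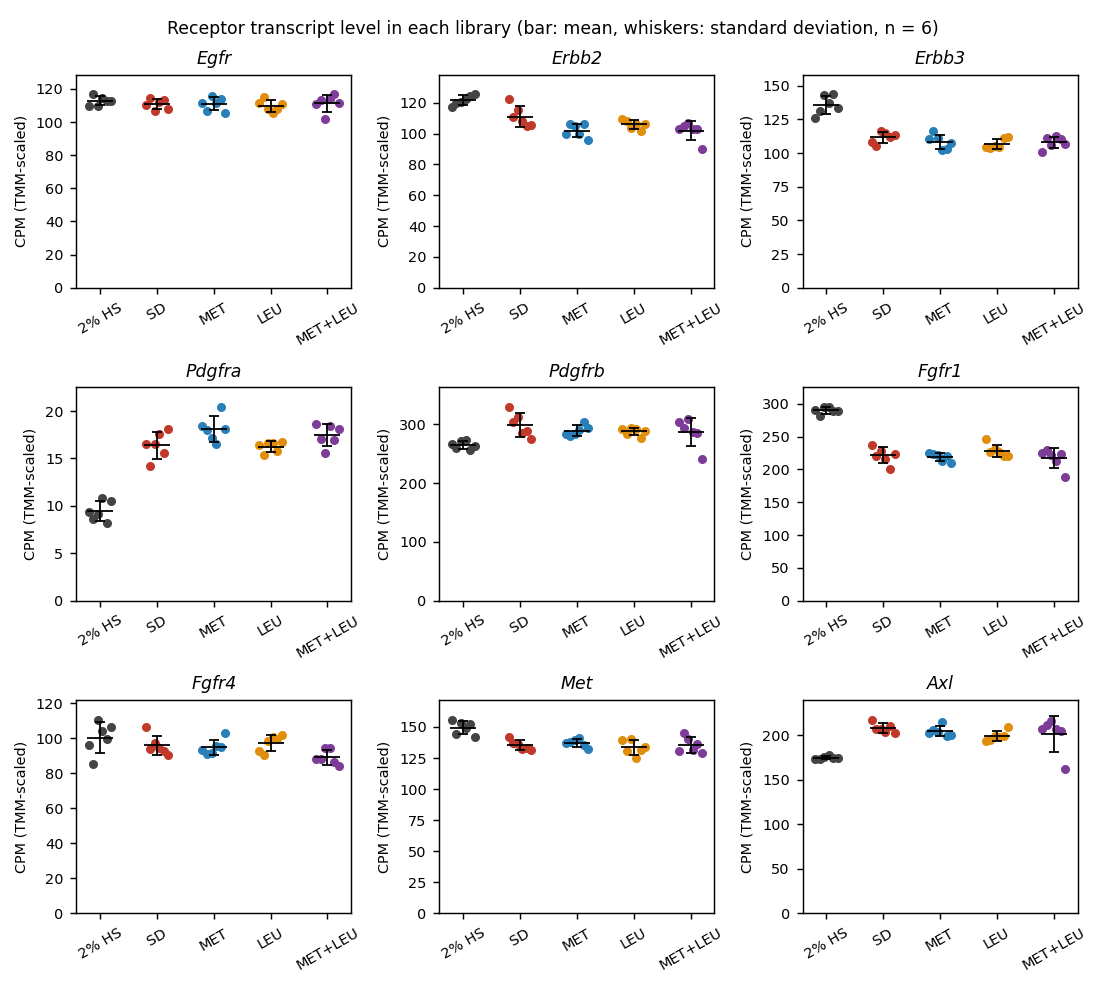
Level of each receptor in each library, in TMM-scaled CPM on axes that start at 0; bars are group means and whiskers standard deviations, with n = 6. The 2% HS libraries of Pdgfra sit between 8.23 and 10.8 CPM, under all 24 serum-free libraries, and those of Fgfr1 sit between 282 and 296 CPM, above all 24.

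The promoters of 4 receptors that changed are shown so that their sequences can be compared, 2 from genes that were higher in SD (Pdgfra and Axl) and 2 from genes that were lower (Erbb2 and Met). Each runs 5′ to 3′ on the gene's own strand from 250 bases before the annotated start to 50 after it (RefSeq, GRCm38.p6). The windows are chr5:75152001-75152300 on the plus strand for Pdgfra, chr7:25788684-25788983 on the minus strand for Axl, chr11:98412234-98412533 on the plus strand for Erbb2 and chr6:17463707-17464006 on the plus strand for Met. Capitals mark matches to the GC box GGGCGG, the AP-1 site TGANTCA or the forkhead site GTAAACA, searched on both strands, of which none overlapped another.
Pdgfra: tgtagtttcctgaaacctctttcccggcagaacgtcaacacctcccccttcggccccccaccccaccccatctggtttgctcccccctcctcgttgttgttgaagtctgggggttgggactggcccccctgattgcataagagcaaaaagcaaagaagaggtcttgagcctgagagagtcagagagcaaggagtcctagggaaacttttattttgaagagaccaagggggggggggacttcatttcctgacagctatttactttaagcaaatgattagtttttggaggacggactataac
Axl: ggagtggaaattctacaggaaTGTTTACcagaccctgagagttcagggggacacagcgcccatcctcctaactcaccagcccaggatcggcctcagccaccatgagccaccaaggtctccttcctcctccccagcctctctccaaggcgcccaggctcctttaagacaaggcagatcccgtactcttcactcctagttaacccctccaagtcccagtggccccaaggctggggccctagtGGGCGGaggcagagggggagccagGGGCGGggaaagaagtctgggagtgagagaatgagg
Erbb2: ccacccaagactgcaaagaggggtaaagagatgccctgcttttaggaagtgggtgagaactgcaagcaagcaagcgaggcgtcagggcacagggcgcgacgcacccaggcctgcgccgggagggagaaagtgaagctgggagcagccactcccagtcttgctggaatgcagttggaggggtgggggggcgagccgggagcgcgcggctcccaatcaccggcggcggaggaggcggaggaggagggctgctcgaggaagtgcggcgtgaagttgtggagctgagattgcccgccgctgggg
Met: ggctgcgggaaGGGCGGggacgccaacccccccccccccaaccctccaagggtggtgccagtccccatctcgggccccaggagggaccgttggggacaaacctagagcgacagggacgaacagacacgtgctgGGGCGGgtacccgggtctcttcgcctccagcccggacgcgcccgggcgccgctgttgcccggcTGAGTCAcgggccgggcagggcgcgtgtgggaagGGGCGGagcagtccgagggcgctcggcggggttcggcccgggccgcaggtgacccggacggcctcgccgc
Axl held 2 GC boxes and, 229 to 223 bases before the start, 1 forkhead match read on the other strand. Met held 3 GC boxes and 1 AP-1 match, from 54 to 48 bases before the start. Pdgfra and Erbb2 held none of these letters in their windows. Among 32544 mouse promoter windows of the same length, 35.9% held the GC box, 7.79% the AP-1 site and 3.66% the forkhead site. The GC content of the Met window was 75.7% and that of the Pdgfra window 51%, against a median of 53% over all windows. A match is a description of the letters and not a site in use. Of the 9 receptors, 6 had a window that was read.

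Pdgfra, which binds the PDGF ligands as a homodimer or together with Pdgfrb, had the highest fold of the 9 (ENSMUSG00000029231, chr5:75152292-75198215 on GRCm38, plus strand). Its level was 8.23 to 10.8 CPM in 2% HS, with a median of 9.22, and 14.2 to 18.1 CPM in SD, with a median of 16.5. Every SD library was above every 2% HS library. The fitted change was 1.73-fold (95% interval 1.56 to 1.92, log2 0.79 ± 0.08 SE, n = 6 per group, adjusted p = 5.21e-12). The libraries of MET (16.6 to 20.5 CPM), LEU (15.3 to 16.7 CPM) and MET+LEU (15.5 to 18.6 CPM) also stood above all those of 2% HS. The annotated exons of Pdgfra share 622 bases with the antisense models Gm42802 and Gm42803 and 30 with the microRNA gene Mir7025. The strand setting of the counting is not given in the sources used here, so reads of these partners may be included.

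Since Pdgfra also marks interstitial cells, the fibroblast list stands beside it. All 6 tested members of the 7-gene list (Col1a1, Col3a1, Dcn, Lum, Ly6a and Dpt) were higher in SD, and Thy1 was under 10 counts in every library. Among all tested genes, 13.9% were called higher and 13.9% lower in that comparison. The dermatopontin gene Dpt rose from 5.73 ± 0.65 to 47.8 ± 2.98 CPM (standard deviation, n = 6, adjusted p = 2.94e-36). The summed level of the list was 2985 to 3298 CPM in 2% HS and 5240 to 5558 CPM in SD, mostly from the collagen gene Col3a1 at 2539 and 4506 CPM. Summed myotube markers and summed markers of undifferentiated myoblasts (353.9 to 387.6 and 261.8 to 294.4 CPM) were lower in SD over the same libraries. The myotube sum was mostly Ttn, at 30970 and 24590 CPM. Of its 8 genes, Ckm, Actn2, Ttn and Atp2a1 were lower, Mylpf was higher (adjusted p = 0.0382) and 3 did not pass, and of the 5 myoblast genes 3 were lower and Cd34 was higher (adjusted p = 1.04e-06). Their part in the receptor result was not tested.

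Pdgfrb, the other PDGF receptor (ENSMUSG00000024620, chr18:61045150-61085061, plus strand), moved less. It measured 256 to 273 CPM in 2% HS, with a median of 265, and 276 to 330 CPM in SD, with a median of 297. The groups did not overlap, although the lowest SD library was only slightly above the highest 2% HS library. The change was 1.13-fold (95% interval 1.07 to 1.20, log2 0.18 ± 0.04 SE, adjusted p = 0.000681). Of the mural cell markers, Rgs5 (0.148 and 0.478 CPM) and Cspg4 (79.5 and 91.0 CPM) were higher in SD and Abcc9 (5.74 and 3.95 CPM) was lower, and the list's summed level, 83.0 to 94.8 CPM in 2% HS and 87.4 to 101 CPM in SD, overlapped. At its level, the change of Rgs5 rests on few reads.

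Axl, a receptor of the TAM family that binds Gas6 (ENSMUSG00000002602, chr7:25757273-25788705, minus strand), measured 173 to 177 CPM in 2% HS, with a median of 175. The SD libraries ran from 202 to 218 CPM with a median of 208 and lay clear of them. Axl was 1.19-fold higher in SD (95% interval 1.13 to 1.26, log2 0.25 ± 0.04 SE, adjusted p = 1.98e-06). Macrophages also express Axl. The macrophage list summed to 2.86 to 4.35 CPM in 2% HS and 4.46 to 6.24 CPM in SD, with Adgre1 at 0, Ptprc under 10 counts in every library, and Cd14, 1 of its 2 tested genes, higher. The part of this in the Axl result was not tested.

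Fgfr1, a receptor for FGF2 and other fibroblast growth factors (ENSMUSG00000031565, chr8:25513654-25575718, plus strand), had the largest decrease of the 9. It measured 282 to 296 CPM in 2% HS, with a median of 290, and 202 to 238 CPM in SD, with a median of 223. No SD library reached the 2% HS range. The level fell by 23.6% (95% interval -27.6 to -19.5%, log2 -0.39 ± 0.04 SE, adjusted p = 1.17e-11). Fgfr4, the FGF receptor linked to differentiating muscle (ENSMUSG00000005320, chr13:55152640-55168759, plus strand), measured 85.1 to 111 CPM in 2% HS and 90.6 to 106 CPM in SD, with medians of 102 and 94.2. Its SD libraries lay inside the range of 2% HS, the fitted log2 difference was -0.07 with an interval of -0.16 to 0.03, and the adjusted p was 0.316. Exons of Fgfr1 share 164 bases with the antisense gene Gm16159.

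Among the ErbB receptors, the family bound by EGF-like ligands and neuregulins, Erbb3 and Erbb2 were lower in SD. Erbb3, whose own kinase is weak and which binds neuregulin (ENSMUSG00000018166, chr10:128567523-128589652, minus strand), measured 126 to 144 CPM in 2% HS, with a median of 135, and 105 to 116 CPM in SD, with a median of 113. The groups did not overlap, and the level fell by 17.8% (95% interval -22.1 to -13.3%, log2 -0.28 ± 0.04 SE, adjusted p = 6.27e-08). Of the markers of Schwann cells, which carry much Erbb3, 3 of 4, Sox10 and S100b among them, were under 10 counts in every library, and the list summed to 2.23 to 3.08 CPM in 2% HS and 1.73 to 2.62 CPM in SD. Erbb2, the partner that has no known ligand of its own (ENSMUSG00000062312, chr11:98412470-98437716, plus strand), measured 117 to 126 CPM in 2% HS and 105 to 122 CPM in SD, with medians of 121 and 109. Of the SD libraries, 5 of 6 lay below every 2% HS library and 1 lay within their range. The level fell by 8.6% (95% interval -13.5 to -3.39%, log2 -0.13 ± 0.04 SE, adjusted p = 0.0107). Egfr, the founding member of the family (ENSMUSG00000020122, chr11:16752203-16918158, plus strand), measured 110 to 117 CPM in 2% HS, with a median of 113, and 107 to 114 CPM in SD, with a median of 111. The groups overlapped, and the log2 difference was -0.03 with a 95% interval of -0.10 to 0.04 (adjusted p = 0.626), so that a change of more than 6.5% down or 3.13% up lay outside the interval.

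Met, the receptor of hepatocyte growth factor (ENSMUSG00000009376, chr6:17463800-17573980, plus strand), measured 142 to 156 CPM in 2% HS, with a median of 151, and 131 to 142 CPM in SD, with a median of 135. Of the SD libraries, 5 of 6 were below all of 2% HS and the highest just reached the lowest 2% HS library. The level fell by 9.41% (95% interval -13.8 to -4.84%, log2 -0.14 ± 0.04 SE, adjusted p = 0.00152).

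The libraries of SD and 2% HS did not overlap for 5 of the 9 receptors (Pdgfra, Pdgfrb, Axl, Fgfr1 and Erbb3), against 13.6% of all tested genes. Over the 24 serum-free libraries, Pdgfra was above all of 2% HS in 24 and Fgfr1 and Erbb3 were below all of 2% HS in 24, while 7.85% of all tested genes had their 24 libraries on 1 side. Pdgfrb and Axl were above all of 2% HS in 23 libraries, and the remaining library, below all of 2% HS in both cases, was MET+LEU replicate 6. Erbb2 was below in 23 and Met in 22.

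Because receptors of 1 family can pair with each other, their ratios per length were also compared. Ratios within a library do not depend on its scaling. These 5 ratios and their test were chosen after the values had been seen. Pdgfra, Fgfr1 and Erbb3 had by then been seen to separate SD from 2% HS, so the p-values add no independent support. Pdgfra stood at a median of 0.0188 of Pdgfrb in 2% HS and 0.0291 in SD, with ranges of 0.0176 to 0.0219 and 0.0254 to 0.0359 that did not overlap. The log2 difference was 0.62 ± 0.09 (SE, n = 6 per group, two-sided exact permutation test, p = 0.00216, the smallest possible, adjusted p = 0.00722 over 10 comparisons). Fgfr1 stood at a median of 1.03 times Fgfr4 in 2% HS and 0.831 times in SD, without overlap (log2 -0.33 ± 0.05, exact permutation p = 0.00216, adjusted p = 0.00722). Erbb3 went from a median of 2.25 times Egfr to 1.90 times (log2 -0.26 ± 0.05, exact permutation p = 0.00216, adjusted p = 0.00722), also without overlap. Erbb2 over Erbb3 had medians of 1.04 and 1.12, with 4 of 6 SD libraries above all of 2% HS (log2 0.15 ± 0.05, exact permutation p = 0.013, adjusted p = 0.0325). Erbb2 over Egfr had medians of 2.35 and 2.11 and did not pass after adjustment (log2 -0.11 ± 0.05, exact permutation p = 0.0476, adjusted p = 0.0952). In MET+LEU vs. SD, none of the 5 ratios passed, with adjusted exact permutation p-values of 0.133 to 0.251. Without MET+LEU replicate 6 the log2 differences were -0.10 for Erbb2/Egfr, -0.05 for Erbb3/Egfr, -0.04 for Erbb2/Erbb3, 0.10 for Pdgfra/Pdgfrb (0.16 with it) and 0.10 for Fgfr1/Fgfr4 (0.07 with it), with unadjusted exact permutation p-values of 0.0779 to 0.481.

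**Figure D3:**
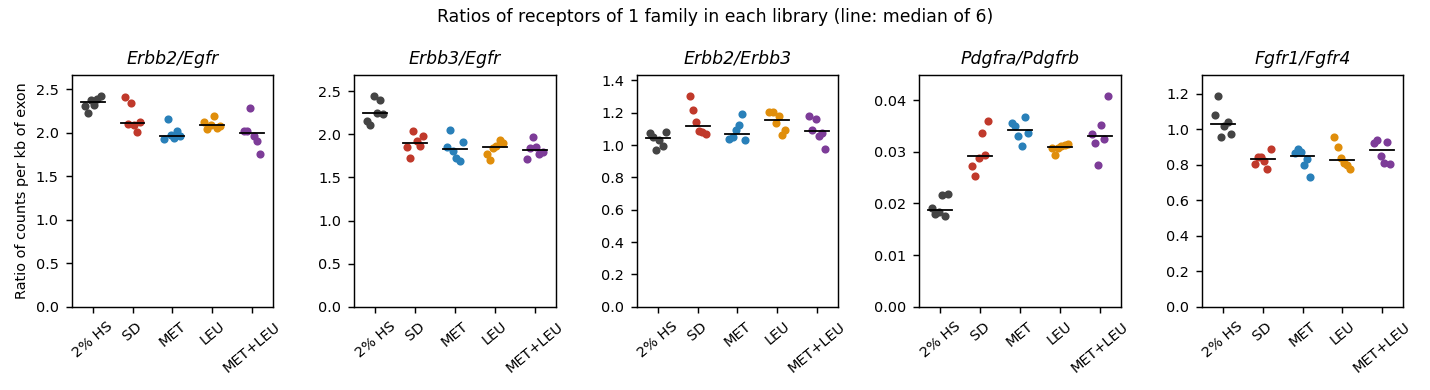
Ratios of receptors of 1 family in each library, from counts per kb of exon, on axes that start at 0; lines are medians of 6 libraries. The 2% HS libraries lie below all SD libraries for Pdgfra/Pdgfrb and above them for Fgfr1/Fgfr4 and Erbb3/Egfr.

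The next comparisons asked whether metformin, leucine or both changed the receptors in serum-free medium. All 3 use the same 6 SD libraries. In MET vs. SD none of the 9 receptors passed (lowest adjusted p = 0.217), where 0.157% of all genes were called. At an unadjusted p under 0.05 stood 2 of the 9, Erbb2 and Pdgfra, and 1597 of the 15907 genes. In LEU vs. SD none passed either (lowest adjusted p = 0.611), where 0.553% of all genes were called. Here 0 of 9 receptors and 1588 of the 15907 genes had an unadjusted p under 0.05. DESeq2 and limma-voom also called 0 receptors in both comparisons. All groups share 1 estimate of the spread, and without MET+LEU replicate 6 the shares of all genes called were 1.02% and 1.65%, again with 0 receptors (lowest adjusted p = 0.0756 and 0.359). The intervals show what size of change these libraries leave room for. For Fgfr1 the log2 interval ran from -0.09 to 0.06 in MET and from -0.03 to 0.12 in LEU, and for Axl from -0.11 to 0.05 and from -0.14 to 0.02. For Pdgfra, with its few counts, it ran from 0.00 to 0.28 in MET and from -0.16 to 0.13 in LEU.

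In MET+LEU vs. SD, Erbb2 was the 1 receptor that passed, and it was lower. It measured 89.8 to 107 CPM in MET+LEU, with a median of 103, against 105 to 122 CPM in SD, with a median of 109. Of the MET+LEU libraries, 4 of 6 were below every SD library. The level fell by 8.22% (95% interval -13.2 to -2.96%, log2 -0.12 ± 0.04 SE, adjusted p = 0.0239), while 7.8% of all tested genes were called lower and 10.6% higher. The call was lost without MET+LEU replicate 6 (log2 -0.09, adjusted p = 0.0821), without SD replicate 1 (log2 -0.09, adjusted p = 0.105), without SD replicate 3 (log2 -0.11, adjusted p = 0.0565), and with a correction for GC content (log2 -0.03, adjusted p = 0.651). It was also lost with limma-voom (log2 -0.08, adjusted p = 0.148) and in a fit of only MET+LEU and SD (log2 -0.13, adjusted p = 0.122). Over the same libraries, 5 of 6 proliferation markers (Mki67, Top2a, Ccnb1, Cdk1 and Mcm2) were lower in MET+LEU, with a summed level of 6 genes of 159 to 189 CPM against 199 to 263 CPM in SD. The same 5 passed without replicate 6, where 13.6% of all genes were called, both directions together. The part of these markers in the Erbb2 result was not tested. Erbb2 in the MET group was 95.6 to 106 CPM, with a median of 102 and a log2 difference from SD of -0.12 (adjusted p = 0.217). In the LEU group it was 102 to 109 CPM, with a median of 106 and a log2 difference of -0.07 (adjusted p = 0.611).

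The other 8 receptors did not pass in MET+LEU vs. SD. Pdgfra had medians of 17.6 CPM in MET+LEU and 16.5 CPM in SD, with a log2 difference of 0.09, an interval of -0.05 to 0.23, and a difference of 0.08 without replicate 6. Fgfr4 had the lowest adjusted p of these, 0.117, with 84.0 to 94.6 CPM and a median of 88.0 in MET+LEU, and 4 of 6 libraries below all of SD. Its log2 difference was -0.11 with all libraries and -0.09 without replicate 6 (adjusted p = 0.206), and with the GC correction its direction turned, to 0.01. Met and Egfr had log2 differences of 0.00 and 0.01, and both stood at 0.01 without replicate 6. Axl measured 162 to 216 CPM in MET+LEU, with a median of 207, and its log2 difference was -0.05 with all libraries and 0.00 without replicate 6, which held the value of 162. Fgfr1 likewise measured 188 CPM in that replicate and had log2 differences of -0.03 with it and 0.01 without it. Erbb3 and Pdgfrb stood at -0.05 and -0.06 with it and at -0.05 and -0.02 without it.

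Compared with each agent alone, MET+LEU differed in 0 of the 9 receptors from MET (lowest adjusted p = 0.272, 0 of 9 at an unadjusted p under 0.05) and in 0 of 9 from LEU (lowest adjusted p = 0.108, 1 of 9). An unadjusted p under 0.05 was found for 3588 and 3425 of the 15907 genes. Of all genes, 8.69% and 6.28% were called, and without MET+LEU replicate 6 the shares were 4.66% and 2.95%, with 0 receptors in both (lowest adjusted p = 0.417 and 0.196). The interaction of metformin and leucine, which tests whether the combination departs from the sum of its parts, passed for 0 of 9 receptors (lowest adjusted p = 0.674, 0 of 9 at an unadjusted p under 0.05) and for 0.0503% of all genes (0.0817% without that replicate, 0 receptors). For the interaction, 1389 of the 15907 genes had an unadjusted p under 0.05. Neither DESeq2 nor limma-voom called a receptor in these 3 comparisons.

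Against 2% HS, the MET+LEU group had 8 of 9 receptors past the threshold. The 3 higher ones compare with 22.1% of all genes and the 5 lower ones with 20.3%. Pdgfra (log2 0.88 ± 0.07 SE, adjusted p = 1.23e-13) and Axl (log2 0.20 ± 0.04, adjusted p = 4.4e-05) were higher, and so was Pdgfrb (log2 0.12 ± 0.04, adjusted p = 0.0188). Fgfr1 (log2 -0.42 ± 0.04, adjusted p = 1.2e-12), Erbb3 (log2 -0.33 ± 0.04, adjusted p = 1.15e-09), Erbb2 (log2 -0.25 ± 0.04, adjusted p = 9.98e-07), Fgfr4 (log2 -0.17 ± 0.05, adjusted p = 0.00295) and Met (log2 -0.14 ± 0.04, adjusted p = 0.00115) were lower. Egfr had a log2 difference of -0.02 with an interval of -0.09 to 0.05. Without MET+LEU replicate 6 the count was again 8, with Pdgfrb at 0.16 (adjusted p = 0.000154) and Axl at 0.26 (adjusted p = 1.59e-10). In that fit 40.8% of all genes were called, both directions together. Pdgfrb lost its call without MET+LEU replicate 1 (log2 0.09, adjusted p = 0.0779) and without replicate 3 (log2 0.09, adjusted p = 0.0684), with upper-quartile scaling (log2 0.09, adjusted p = 0.0637) and in a fit of only the groups compared (log2 0.11, adjusted p = 0.0589). Fgfr4 lost its call with the GC correction (log2 -0.09, adjusted p = 0.0787). This comparison shares libraries with both SD vs. 2% HS and MET+LEU vs. SD.

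**Figure D4:**
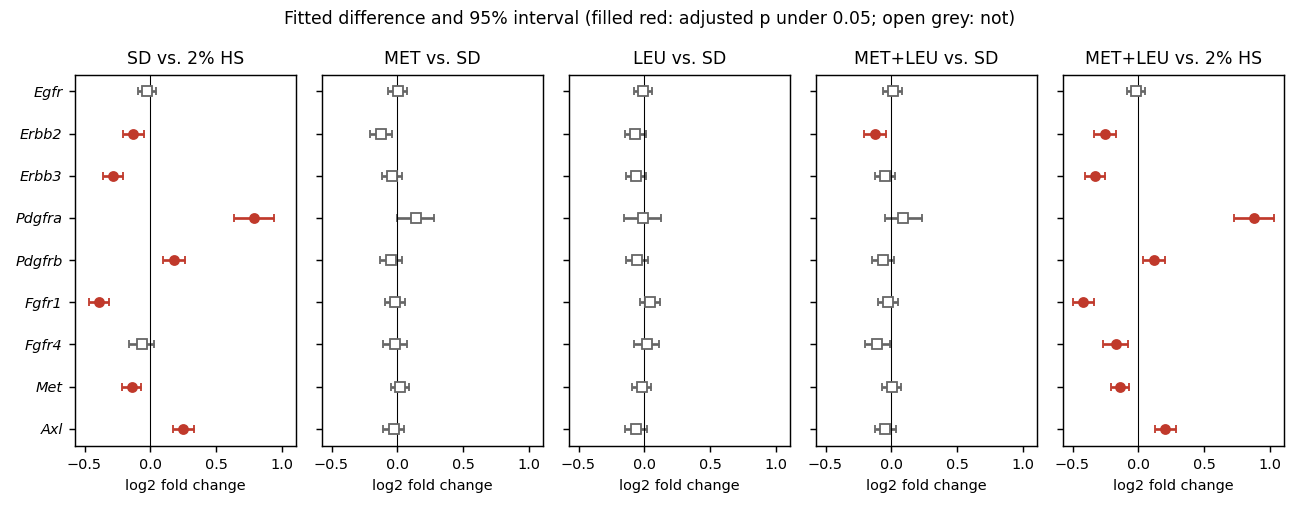
Fitted log2 fold change of each receptor in 5 comparisons, with 95% intervals; filled red points have an adjusted p under 0.05 and open grey points do not. Both comparisons with 2% HS hold 7 and 8 filled points, from -0.42 for Fgfr1 to 0.88 for Pdgfra, and the 3 comparisons with SD hold 1, Erbb2 at -0.12 in MET+LEU.

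Ligands of the families to which the 9 receptors belong were also measured, as far as these cells make them. Of 36 listed, 19 were tested in SD vs. 2% HS, and 7 were higher, 6 were lower and 6 did not pass (median log2 -0.09, against 0.00 for all genes). Of all tested genes, 13.9% were called higher and 13.9% lower. Hgf, the ligand of Met, rose from 27.7 ± 1.52 to 71.2 ± 6.01 CPM (standard deviation, n = 6, 2.57-fold, adjusted p = 2.22e-17), while Met itself was lower. Fgf21, an FGF that acts with a klotho co-receptor, fell from 39.5 ± 4.01 to 19.6 ± 2.33 CPM (adjusted p = 3.22e-09). Areg, a ligand of Egfr, rose from 0.574 ± 0.23 to 1.12 ± 0.29 CPM (adjusted p = 0.0151). Its 2% HS libraries held only 0.304 to 0.886 CPM, so this change rests on few reads. When both agents were added (MET+LEU vs. SD), 1 ligand was higher and 1 lower, against 10.6% and 7.8% of all genes. Hgf rose further, from 71.2 ± 6.01 to 90.5 ± 11.1 CPM (1.27-fold, adjusted p = 0.000284), and this call held without MET+LEU replicate 6 (log2 0.35 with it and 0.30 without it, adjusted p = 0.00175). Pdgfb, a ligand of both PDGF receptors, measured 21.5 ± 0.37 CPM in SD and 18.1 ± 2.69 CPM in MET+LEU (log2 -0.24, adjusted p = 0.018), and its call was lost without that replicate (log2 -0.18, adjusted p = 0.07).

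Co-receptors help ligands bind. Of 17 listed, 13 were tested, and in SD vs. 2% HS 4 were higher, 1 was lower and 8 did not pass (median log2 0.07), while limma-voom called 8. The shares of all genes called were 13.9% higher and 13.9% lower. Flrt2, a membrane protein known to bind FGF receptors, rose by 0.45 ± 0.04 on the log2 scale (adjusted p = 8.53e-14), and the glypican Gpc6 rose by 0.33 ± 0.05 (adjusted p = 8.52e-07). Fgfrl1, an FGF receptor without a kinase domain, fell by 0.33 ± 0.05 (adjusted p = 1.71e-06). The FGF co-receptors Kl and Klb had at most 3 and 4 counts in any library. With both agents, 3 co-receptors were higher and 3 lower, against 10.6% and 7.8% of all genes. The syndecan Sdc3 had a log2 change of -0.20 (adjusted p = 0.0141), the neuropilin Nrp1 one of 0.19 (adjusted p = 0.0123) and the syndecan Sdc2 one of 0.19 (adjusted p = 0.000123). Without MET+LEU replicate 6, 5 co-receptors passed, these 3 among them (Sdc3 -0.17, adjusted p = 0.0394, Nrp1 0.19, adjusted p = 0.0133, Sdc2 0.17, adjusted p = 0.000296), and with the GC correction 1 did. The share of all genes called without that replicate was 13.6%, both directions together.

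Adaptors and relay proteins carry the signal inward. Of 32 listed, 31 were tested, and in SD vs. 2% HS 10 were higher, 3 lower and 18 did not pass (median log2 0.04). Among all genes, 13.9% were called higher and 13.9% lower. Grb14, an adaptor that binds activated receptors and dampens them, rose from 6.63 ± 0.99 to 10.4 ± 1.03 CPM (adjusted p = 3.72e-06). The kinase Src (log2 0.23 ± 0.07, adjusted p = 0.00934) also rose. Adding both agents left 3 higher than in SD, among them Nck1 (log2 0.23 ± 0.04, adjusted p = 6.38e-05) and Pik3r1 (log2 0.15 ± 0.04, adjusted p = 0.00296), and 1 was lower, against 10.6% and 7.8% of all genes. Without MET+LEU replicate 6, 3 of these 4 passed, with Nck1 at 0.20 (adjusted p = 0.000309) and Pik3r1 at 0.11 (adjusted p = 0.0183). In that fit 13.6% of all genes were called, both directions together.

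Receptor turnover proteins and inhibitors shape how strongly and how long the signal runs. All 28 listed were tested, and in SD vs. 2% HS 2 were higher, 7 lower and 19 did not pass (median log2 -0.01). Among all genes, 13.9% were called higher and 13.9% lower. Cblc, a ubiquitin ligase of the Cbl family, fell from 0.85 ± 0.28 to 0.288 ± 0.09 CPM (adjusted p = 0.000902), and the receptor phosphatase Ptprk fell from 113 ± 5.54 to 88.7 ± 4.19 CPM (adjusted p = 1.08e-09). The change of Cblc rests on few reads, with 0.164 to 0.3985 CPM in the SD libraries. Spry4, a feedback inhibitor of Ras signalling, rose from 6.86 ± 1.04 to 9.49 ± 0.97 CPM (adjusted p = 0.000255). Between MET+LEU and SD, 3 were higher and 1 lower, against 10.6% and 7.8% of all genes. The phosphatase Ptpn2 had a log2 change of 0.25 (adjusted p = 0.00102), the ubiquitin protease Usp8 one of 0.21 (adjusted p = 0.0209) and Sh3kbp1, which works with Cbl in endocytosis, one of 0.17 (adjusted p = 0.017). Without MET+LEU replicate 6, Ptpn2 alone of the 28 passed (log2 0.20, adjusted p = 0.00585), and the calls of Usp8 (log2 0.10, adjusted p = 0.0694) and Sh3kbp1 (log2 0.12, adjusted p = 0.0838) were lost. Of all genes, 13.6% were called without that replicate, both directions together.

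Of 49 other receptor tyrosine kinases, 28 were tested, and in SD vs. 2% HS 10 were higher, 4 lower and 14 did not pass (median log2 0.09). The shares of all genes called were 13.9% higher and 13.9% lower. The FGF receptor Fgfr2 rose from 3.34 ± 0.53 to 6.28 ± 0.93 CPM (adjusted p = 1.89e-08), in the group in which Fgfr1 was lower. Tyro3, of the same TAM family as Axl, rose from 4.24 ± 0.52 to 7.87 ± 1.66 CPM (adjusted p = 1.46e-07), and Epha1 from 3.76 ± 0.81 to 6.79 ± 0.87 CPM (adjusted p = 4.87e-07). In MET+LEU vs. SD none of the 28 was higher and 3 were lower, Tyro3 (log2 -0.37 ± 0.12, adjusted p = 0.026), the collagen receptor Ddr1 (log2 -0.22 ± 0.06, adjusted p = 0.00525) and Ephb3 (log2 -0.18 ± 0.04, adjusted p = 0.00309). Among all genes, 10.6% were called higher and 7.8% lower. Without MET+LEU replicate 6, Ddr1 (log2 -0.15, adjusted p = 0.00392) and Ephb3 (log2 -0.16, adjusted p = 0.00883) passed and Tyro3 did not (log2 -0.32, adjusted p = 0.0723). The share of all genes called without it was 13.6%, both directions together. In a fit of only MET+LEU and SD, the calls numbered 1 ligand, 2 co-receptors, 1 adaptor, 1 turnover gene and 1 other receptor kinase. That fit called 1345 genes in all, both directions together, against 2931 in the main fit of all 30 libraries. The shares of all genes given above therefore do not apply to its list counts. None of these 5 lists was tested as a list. Their counts in the main fit and without MET+LEU replicate 6 stand beside the shares of all genes given above.

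**Figure D5:**
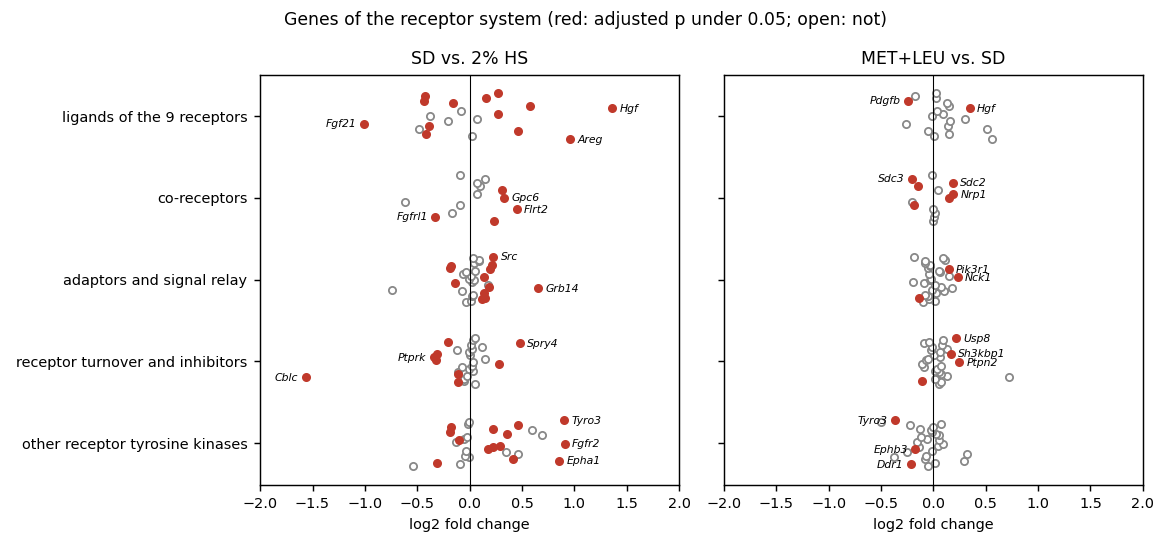
Fitted log2 fold changes of tested genes of 5 lists around the receptors, without serum (left, SD vs. 2% HS) and with both agents (right, MET+LEU vs. SD); red points have an adjusted p under 0.05, open points do not, and up to 3 genes are named per list. Hgf is the point farthest to the right, at 1.36 in SD vs. 2% HS, and Cblc the farthest to the left, at -1.57. The point of Cblc rests on few reads.

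The transcripts most like each receptor over the 30 libraries were found from Pearson correlations of log2 CPM, which describe these libraries and share their depth and their grouping. Pdgfra was most like the collagen gene Col3a1 (r = 0.959) and Sesn3 (r = 0.954), and Fgfr1 was most like Mrc2 (r = 0.973) and Msln (r = 0.954). Erbb2 was most like Obsl1 (r = 0.947) and Mmp15 (r = 0.93), Erbb3 like AI464131 and Tbc1d1 (both r = 0.907), Axl like Fkbp10 (r = 0.904) and Ltbp4 (r = 0.891), and Pdgfrb like Lrp1 (r = 0.901) and Cdk2ap2 (r = 0.882). For Met the nearest were Sema6c (r = 0.878) and Ets2 (r = 0.865), and for Fgfr4 Ncln (r = 0.84) and Ddx39b (r = 0.796). The values for Egfr were lower, the highest being Cep83os (r = 0.634) and Zfand4 (r = 0.618).

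Among the receptors themselves, r over the 30 libraries was 0.864 for Erbb2 with Fgfr1, 0.846 for Pdgfrb with Axl and -0.878 for Pdgfra with Fgfr1. With each group's mean taken out, these became 0.784, 0.748 and 0.06, and without MET+LEU replicate 6 (n = 29) they were 0.68, 0.503 and 0.146. Erbb3 with Pdgfra went from -0.857 over all libraries to 0.036 within groups. Other pairs had high values within groups and not over all libraries, such as Erbb2 with Pdgfrb (0.739 within groups, 0.604 without that replicate, -0.048 over all libraries) and Pdgfrb with Fgfr1 (0.689, 0.496 and -0.341).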

How the data were processed

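The deposited values were raw counts per gene, whole numbers that the authors made from stranded 150 × 150 bp reads of ribosomal RNA-depleted RNA. The submitters' processing notes name STAR 2.7.6a, cutadapt 1.16, featureCounts 1.6.3, DESeq2 1.30.1 and GRCm38, while the strand setting and annotation are not given in the sources used here. Symbols, positions and exon lengths came from GENCODE M21 (55141 of 55487 identifiers matched), and promoters from RefSeq. No pair of libraries had identical counts.

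Counts were analysed in R 4.3.3 with edgeR 4.0.16. Genes passing filterByExpr (minimum count 10, minimum total 15) were scaled by TMM and fitted over all 30 libraries with 1 mean per group (glmQLFit, robust; common biological coefficient of variation 0.0709), and 15907 genes were tested. The standard error is the absolute log2 fold change over the square root of F, and 95% intervals use the t distribution. A CPM mean is given ± its standard deviation. Log2 CPM used a prior count of 2. Family ratios were compared by exact permutation. The script was tested on simulated data.

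Alternatives were DESeq2 1.42.0 size factors and its Wald test, upper-quartile scaling, limma-voom (limma 3.58.1) with sample quality weights, a looser filter (over 5 counts in total), a stricter one (10 counts or more in each library), a fit to the compared groups alone, a block for the replicate number, a correction for GC content, and leaving out each library.

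Members and lists were chosen with earlier results of these data known. Beyond the 9 receptors, the genes named are the 3 with the largest change past the threshold in each related list and comparison, and the 2 with the highest correlation with each receptor (mean log2 CPM of at least 1), apart from an item that is not reported here. Erbb4, Kl, Klb and the markers were named in addition, after their values were seen. Depth was 12784960 to 19604103 counts per library. Where a library has 0 counts for a gene, up to 3 counts of its total remain possible, by counting error only.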

Additional observations from a re-analysis of the deposited data

Results flagged for a closer look

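In 4 of 45 sets of 6 libraries (9 receptors in 5 groups) 1 library lay far from the other 5 by Dixon's criterion. Chance alone would give about 2.2 if the sets were independent. The 9 receptors share the same libraries, so the sets are not independent and 4 cannot be weighed against 2.2. In MET+LEU replicate 6, Erbb2 was at 89.8 CPM where the other 5 libraries had 103 to 107, Pdgfrb at 242 where they had 286 to 310, and Axl at 162 where they had 205 to 216. In LEU replicate 6, Axl was at 209 CPM where the other 5 had 194 to 200. MET+LEU replicate 6 was also the library with 5.85% ribosomal and 7.64% mitochondrial ribosomal RNA counts, and the part of these in its receptor levels was not tested.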

How the results depend on the processing

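7 receptors were called in SD vs. 2% HS under each of the 9 alternatives, the replicate block included, and with any library left out. In MET+LEU vs. SD the count of receptors went from 1 to 0 with limma-voom, with only the groups compared and with the GC correction, and was 0 to 1 with a library left out. For all genes, MET vs. SD went from 25 to 116 (DESeq2 test), 108 (limma-voom), 52 (replicate block) and 47 (GC correction), and LEU vs. SD from 88 to 170 (DESeq2 test), 216 (limma-voom) and 195 (only the groups compared). MET+LEU vs. SD went from 2931 to 1857 with limma-voom and 1345 with only the groups compared, which also gave 496 in place of 1382 against MET and 325 in place of 999 against LEU. The interaction went from 8 to 5 (DESeq2 size factors), 4 (upper-quartile scaling), 22 (DESeq2 test), 19 (limma-voom), 3 (genes with over 5 counts), 1 (only the groups compared) and 17 (replicate block). With a library left out, all-gene counts were 4 to 162 (MET vs. SD), 43 to 263 (LEU vs. SD), 2161 to 3142 (MET+LEU vs. SD), 741 to 1556 (against MET), 456 to 1294 (against LEU) and 1 to 13 (interaction). The higher ends for MET vs. SD, LEU vs. SD and the interaction, and the lower ends for MET+LEU vs. SD and against MET, were those without MET+LEU replicate 6. The lowest counts came without MET replicate 4 for MET vs. SD, LEU replicate 4 for LEU vs. SD, and LEU replicate 3 against LEU and for the interaction, and several other single libraries also moved these 4 counts by over 1.5 times. In MET+LEU vs. SD, adaptor calls went from 4 to 7 with the DESeq2 test or the replicate block and to 7 or 8 without SD replicate 5, SD replicate 6 or MET+LEU replicate 4, other receptor kinases from 3 to 5 with upper-quartile scaling, co-receptors from 6 to 3 without SD replicate 1 or 2, ligands from 2 to 6 without MET+LEU replicate 2 and to 1 with limma-voom, and turnover genes from 4 to 1 with limma-voom and to 2 without SD replicate 2 or MET+LEU replicate 5. The cause of these shifts was not tested.

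Signs turned for differences that had not passed, of which Fgfr4 in MET+LEU vs. SD was the largest (-0.105). With the GC correction, Egfr in SD vs. 2% HS became 0.0043. In MET vs. SD the correction gave Egfr -0.0032, Fgfr1 0.0168, Fgfr4 0.0194 and Axl 0.0025. In MET+LEU vs. SD it gave Egfr -0.0225, Pdgfrb 0.0068, Fgfr1 0.0458, Fgfr4 0.0077, Met -0.0211 and Axl 0.0114. There limma-voom gave Fgfr1 0.0062 and Axl 0.0007, and upper-quartile scaling gave Egfr -0.0054 and Met -0.0125. Met became -0.0015 with DESeq2 size factors and with the DESeq2 test, -0.0027 with at least 10 counts in every library and -0.0032 with only the groups compared. With a library left out, MET vs. SD ran from -0.0087 to 0.0168 (Egfr), -0.0415 to 0.0058 (Fgfr1) and -0.0421 to 0.0147 (Fgfr4), and LEU vs. SD from -0.0253 to 0.0 (Egfr) and -0.0525 to 0.0158 (Pdgfra). MET+LEU vs. SD ran from -0.0115 to 0.0339 (Egfr), -0.0533 to 0.0063 (Fgfr1), -0.019 to 0.0173 (Met) and -0.0666 to 0.0049 (Axl), and MET+LEU vs. 2% HS from -0.038 to 0.0076 (Egfr).

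Replicate numbers did not pair the libraries. Deviations from the group means correlated at a mean r of 0.01571 between libraries of the same number (-0.09134 to 0.1425 over 60 pairs) and -0.003143 between others. The replicate block left the count of receptors at 7 in SD vs. 2% HS. Pdgfra rested on the fewest counts of the 9 receptors, 107 to 322 per library.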
